A study of Mus musculus with 6 samples.

Results

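The cytosolic ribosomal protein genes are the genes that encode the protein part of the ribosome that translates nuclear mRNAs. They were followed in livers of mice lacking a working Fah gene after withdrawal of the drug NTBC. A gene was a member when its single annotated symbol matched the ribosomal protein pattern (Rpl or Rps with a number and an optional final a, l or x, Rplp0 to Rplp2, or Rpsa), and each member was represented by its probe set with the highest mean signal over the 6 arrays. The value table held 64 such genes, 40 of the large subunit and 24 of the small subunit, among 22180 genes with a single-symbol probe set. RefSeq lists 83 mouse symbols of this pattern, and the other 19, among them Rpl10, Rpl13a, Rpl23, Rpl36a and Rps27a, are not analysed here.

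Liver RNA was measured on 6 whole-transcript arrays, 3 from mice after NTBC withdrawal and 3 from mice on continuous NTBC. All 6 mice were males of 12 weeks on a C57Bl/6J background (FAH5981SB) that carry a point mutation in Fah, whose enzyme completes the breakdown of tyrosine, and all received a chow low in tyrosine and phenylalanine. Mice of the withdrawal group went without NTBC for 7 days from the age of 11 weeks; mice of the continuous group kept it at 8 mg/l in drinking water, to which 3% dextrose was added. The labels do not say whether dextrose stayed in the water during withdrawal. NTBC blocks an early step of tyrosine breakdown and so prevents the toxic metabolites that build up without Fah. The titles call the replicates biological without naming animals, and each p-value here rests on the variation among 6 arrays, which may be technical.

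Each ribosome is built from a small subunit, which reads the mRNA, and a large subunit, which joins the amino acids. The ribosomal protein genes are among the most strongly transcribed genes of a liver cell, and their mRNAs begin with a run of pyrimidines (the TOP motif) through which the kinase complex mTORC1 controls their translation. Several ribosomal proteins that are not built into ribosomes bind MDM2, the inhibitor of p53. Although ribosomal protein genes are strongly transcribed, 17 of the 64 members had a mean log2 signal below 6 on these arrays. The median of all probe sets was 5.34. Whether such dim probe sets read their gene well was not tested.

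The promoters of 6 of the members that rose and of Rplp2, the stalk gene that did not pass the test, are shown with the short motifs that were searched for in all members. The C-led run was marked at the start of Rpl15, Rpl38 and Rplp2, and the printed stretch of Rpsa holds no marked match. Each stretch holds 100 bases before and 25 bases after the RefSeq start (GRCm38.p6), read 5′ to 3′ on the gene's strand. Capitals mark matches on either strand to TATAAA (the letters of a TATA box, which in Rplp0 lie after the start), to CCGGAAG (the core that ETS factors such as GABP bind), to GCCATC (the core that YY1 binds) and to TCTCGCG (a motif of housekeeping promoters), with overlapping matches merged. They also mark an uninterrupted run of C and T of at least 5 bases that begins with C at the first transcribed base.
Rplp0 (chr5:115559367-115559491, plus strand): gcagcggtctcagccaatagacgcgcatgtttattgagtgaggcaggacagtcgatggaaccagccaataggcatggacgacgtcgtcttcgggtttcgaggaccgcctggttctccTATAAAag
Rplp2 (chr7:141447551-141447675, plus strand): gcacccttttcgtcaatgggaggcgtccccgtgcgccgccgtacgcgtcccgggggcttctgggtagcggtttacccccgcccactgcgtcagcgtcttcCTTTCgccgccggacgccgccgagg
Rpsa (chr9:120127666-120127790, plus strand): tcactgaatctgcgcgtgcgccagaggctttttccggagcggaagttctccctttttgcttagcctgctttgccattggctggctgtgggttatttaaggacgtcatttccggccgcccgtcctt
Rps28 (chr17:33824538-33824662, minus strand): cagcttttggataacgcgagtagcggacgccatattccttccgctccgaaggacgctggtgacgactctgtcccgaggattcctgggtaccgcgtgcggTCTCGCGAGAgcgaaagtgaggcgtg
Rpl41 (chr10:128549144-128549268, minus strand): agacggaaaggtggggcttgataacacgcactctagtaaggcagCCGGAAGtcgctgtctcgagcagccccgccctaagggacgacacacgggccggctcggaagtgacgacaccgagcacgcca
Rpl15 (chr14:18270962-18271086, minus strand): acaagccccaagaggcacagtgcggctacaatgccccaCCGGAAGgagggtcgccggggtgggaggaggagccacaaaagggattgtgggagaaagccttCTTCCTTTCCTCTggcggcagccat
Rpl38 (chr11:114668480-114668604, plus strand): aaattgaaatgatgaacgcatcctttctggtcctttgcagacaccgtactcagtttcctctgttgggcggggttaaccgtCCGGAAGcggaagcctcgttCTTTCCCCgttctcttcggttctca
RefSeq's table held the promoter of 49 of the 64 members, with 250 bases before and 50 after the start. A gene counted as having a motif where any of its promoters held it. The C-led run at the start was found in 22.45% of these members and in 3.01% of all 27025 genes with a promoter. It was counted only from the exact RefSeq start base, so a run at any other start was missed. CCGGAAG was found in 44.9% of these members and 9.93% of all genes, TCTCGCG in 20.41% and 2.92%, GCCATC in 22.45% and 15.87%, and TATAAA in 10.2% and 15.67%. A C and T run of at least 8 bases within 25 bases of the start, a measure added after the sequences had been read, was found in 57.14% and 22.25%. The 22 members with CCGGAAG had a median log2 change of 0.25 and the others 0.22, and the 11 members with the C-led run had 0.24 and the others 0.22. The 5 members with TATAAA were Rplp0 (0.80), Rps28 (0.77), Rpl32l (0.77), Rpl22 (0.11) and Rpl39 (0.09), of which Rplp0 and Rps28 passed the test. In Rplp0 the match lies after the start, and in Rps28 it lies outside the printed stretch. The median of the 5 was 0.77 and that of the others 0.24. The 10 members with TCTCGCG had 0.17 and the others 0.24, the 11 with GCCATC had 0.25 and the others 0.23, and the 28 with the longer run had 0.24 and the others 0.22.

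Of the 64 genes, 11 were higher after withdrawal and 0 were lower at an adjusted p below 0.05 (limma, Benjamini-Hochberg over all 34472 probe sets). Over all probe sets, 6.21% were higher and 3.2% lower. The 11 were the stalk genes Rplp0 and Rplp1, the large subunit genes Rpl15, Rpl19, Rpl32, Rpl38 and Rpl41, and the small subunit genes Rpsa, Rps19, Rps27l and Rps28, with log2 changes of 0.67 to 0.99. At an unadjusted limma p below 0.05, 27 members were higher and 1 was lower. Of all probe sets 11.17% were lower at that bound, and the share higher is not given here. The median log2 change of the 64 was 0.25, with 47 above 0, against -0.08 for all probe sets. The count depended on scaling. Another scaling centred the arrays on 9775 other genes with a mean signal between the members' quartiles (5.84 to 10.16). These genes of like signal had array medians of 6.99 to 7.31, against 8.14 to 8.67 for the members. This centring put the median of all probe sets at -0.25, and 5 of the 11 passed (Rpl19, Rpl32, Rpl41, Rplp1 and Rpsa). Of the 64, 40 lay above 0, and the members' median was 0.075. The count also depended on single arrays. Without continuous replicate 1 the count was 20, without continuous replicate 2 it was 7 and without continuous replicate 3 it was 5. Without withdrawal replicate 1 only Rpl32 passed, and without withdrawal replicate 2 the count was 4.

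The groups did not overlap, with all withdrawal arrays above all continuous arrays, for 25 members, and 1 member, Rps23, lay wholly below. Over all probe sets the corresponding shares were 13.9% and 13.7%. Non-overlap varied with signal. At a mean log2 signal of 8 or more, 21 of 35 members and 1299 of 2970 other genes lay wholly above. From 8 to 10 these were 8 of 18 and 1066 of 2422, and from 10 up 13 of 17 and 233 of 548. The large and small subunit genes gave like values, with 7 of 40 and 4 of 24 higher and medians of 0.26 and 0.23. The median signal of the 64 genes was 8.61, 8.67 and 8.41 on the withdrawal arrays and 8.43, 8.14 and 8.17 on the continuous arrays. These medians overlapped, since withdrawal replicate 3 lay below continuous replicate 1.

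**Figure D1:**
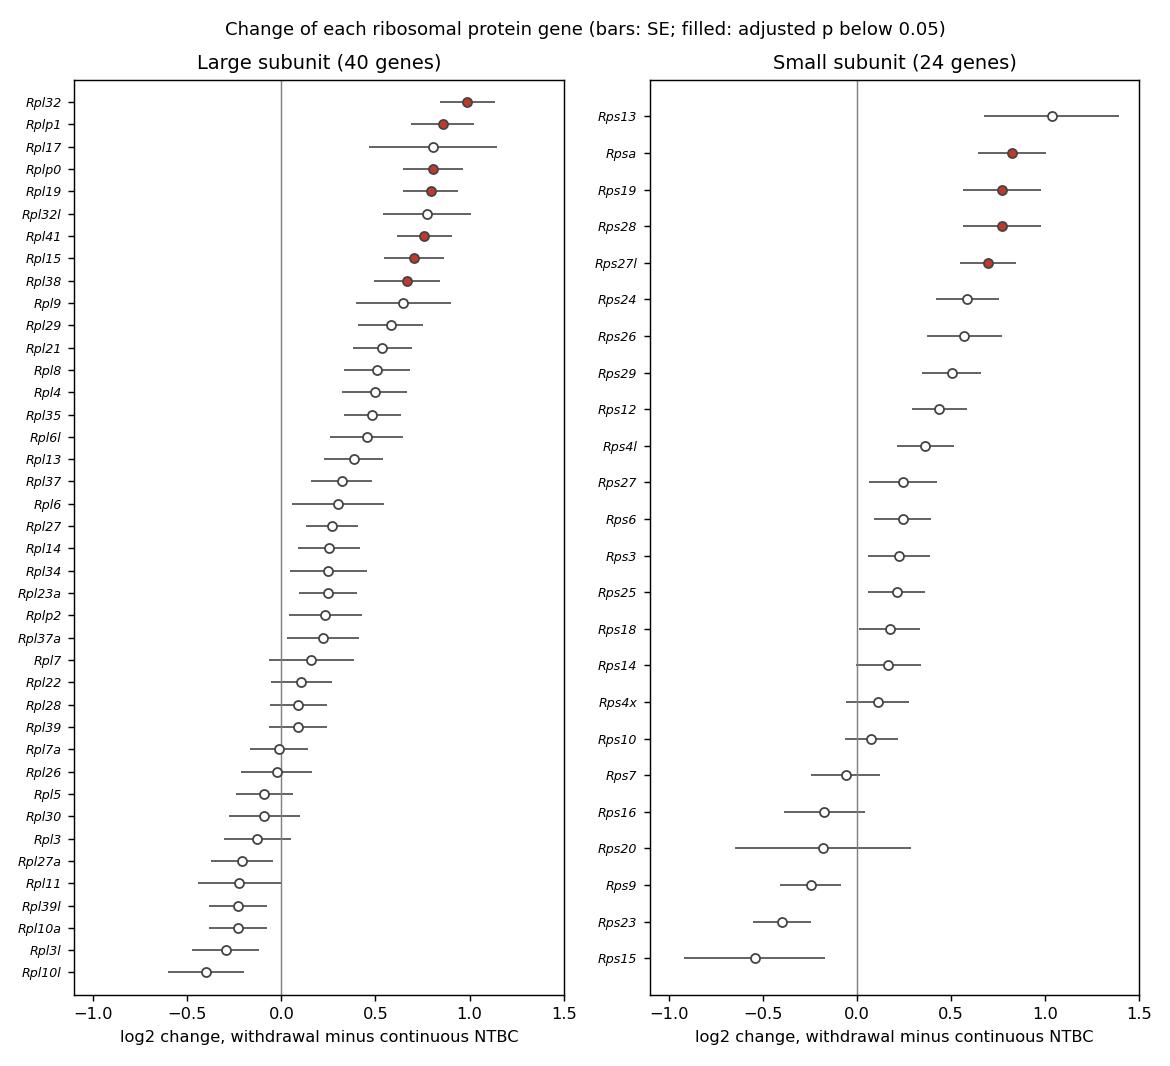
Log2 change (withdrawal minus continuous NTBC) of each of the 64 ribosomal protein genes, with its standard error, and the threshold marked by colour. The 11 genes past the threshold all lie above 0, and 47 of the 64 estimates are above 0.

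The stalk of the large subunit, which recruits the translation factors that hydrolyse GTP, is made of Rplp0 at its base and pairs of Rplp1 and Rplp2. Rplp1 had log2 signals of 11.82, 12.03 and 11.52 on the withdrawal arrays and 10.99, 10.85 and 10.96 on the continuous arrays, a change of 0.86 (SE 0.17, limma adjusted p = 0.00954). Rplp0 had 9.12, 9.29 and 9.04 after withdrawal and 8.37, 8.53 and 8.14 on continuous NTBC, a change of 0.80 (SE 0.16, limma adjusted p = 0.0108). In both genes every withdrawal array lay above every continuous array. Rplp2, which is the partner of Rplp1, was dim at 5.08, 5.00 and 4.88 after withdrawal and 4.36, 4.81 and 5.09 on continuous NTBC, with overlapping groups and a limma adjusted p of 0.506. Without withdrawal replicate 1 the adjusted p was 0.0526 for Rplp1 and 0.0517 for Rplp0, and without withdrawal replicate 2 it was 0.0555 for Rplp0. Averaged over its probe sets, Rplp0 had a change of 0.38 (adjusted p = 0.228), and centred on genes of like signal 0.63 (adjusted p = 0.0519).

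Rpl32, a core protein of the large subunit, had the largest change past the threshold. Its log2 signals were 9.91, 10.06 and 9.87 after withdrawal and 8.99, 8.83 and 9.06 on continuous NTBC, a change of 0.99 (SE 0.15, limma adjusted p = 0.00228), and it passed whichever array was left out. Rpl19, whose protein reaches across to the small subunit, had 11.70, 11.66 and 11.53 after withdrawal and 10.99, 10.79 and 10.73 on continuous NTBC, a change of 0.79 (SE 0.15, limma adjusted p = 0.00774). Rpl41, which encodes a very short peptide of the subunit interface, had 12.42, 12.46 and 12.42 after withdrawal and 11.85, 11.56 and 11.61 on continuous NTBC, a change of 0.76 (SE 0.15, limma adjusted p = 0.00928). In these 3 genes the groups lay apart by more than the spread within either group. Without withdrawal replicate 1 the adjusted p was 0.0528 for Rpl19 and 0.0517 for Rpl41.

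Rpl15, a large subunit protein in which human mutations cause Diamond-Blackfan anaemia, had 11.20, 11.35 and 11.04 after withdrawal and 10.69, 10.35 and 10.43 on continuous NTBC. Its change was 0.71 (SE 0.16, limma adjusted p = 0.0204). Rpl38, which in mouse embryos is needed for translation of a subset of Hox mRNAs, had 10.64, 10.57 and 10.31 after withdrawal and 10.14, 9.63 and 9.75 on continuous NTBC, a change of 0.67 (SE 0.18, limma adjusted p = 0.0420). Continuous replicate 1 was the highest continuous array in both genes. Both passed only without continuous replicate 1 or withdrawal replicate 3. Their highest adjusted p with an array left out was 0.0951 for Rpl15, without withdrawal replicate 2, and 0.183 for Rpl38, without withdrawal replicate 1.

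Among the small subunit genes, Rpsa, which encodes a protein also described as a laminin receptor, had 10.97, 10.95 and 10.60 after withdrawal and 10.29, 9.95 and 9.81 on continuous NTBC. Its change was 0.82 (SE 0.18, limma adjusted p = 0.0166). Rps28, whose protein lies where the mRNA leaves the subunit, had 10.17, 10.10 and 9.84 after withdrawal and 9.65, 9.29 and 8.86 on continuous NTBC, a change of 0.77 (SE 0.21, limma adjusted p = 0.0435). Rps19, which is needed to mature the small subunit and is often mutated in human Diamond-Blackfan anaemia, had 9.83, 9.98 and 9.65 after withdrawal and 9.24, 9.33 and 8.58 on continuous NTBC, a change of 0.77 (SE 0.21, limma adjusted p = 0.0457). The continuous arrays of Rps19 and Rps28 spread more than the withdrawal arrays, and continuous replicate 3 was lowest in both. Rpsa passed only without continuous replicate 1 or withdrawal replicate 3, Rps28 only without continuous replicate 1, and Rps19 only without continuous replicate 1 or 2. The highest adjusted p with an array left out was 0.0903 for Rpsa and 0.171 for Rps28, both without withdrawal replicate 1, and 0.164 for Rps19, without withdrawal replicate 2. Averaged over probe sets, Rps28 and Rps19 had adjusted p-values of 0.0554 and 0.0749, and Rps19 had 0.0711 after quantile normalization.

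Rps27l, a paralog of Rps27 and a known transcriptional target of p53, had 8.74, 8.65 and 8.43 after withdrawal and 7.87, 8.01 and 7.85 on continuous NTBC. Its change was 0.70 (SE 0.15, limma adjusted p = 0.0162), with no overlap between the groups. Leaving out continuous replicate 3, or replicate 1 or 2 of the withdrawal group, took it past 0.05, with a highest adjusted p of 0.103, and after quantile normalization it had 0.0539. Rps27 itself had 5.99, 6.44 and 6.20 after withdrawal and 5.79, 6.24 and 5.87 on continuous NTBC, with a limma adjusted p of 0.454. The difference between the changes of the paralogs was not tested.

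**Figure D2:**
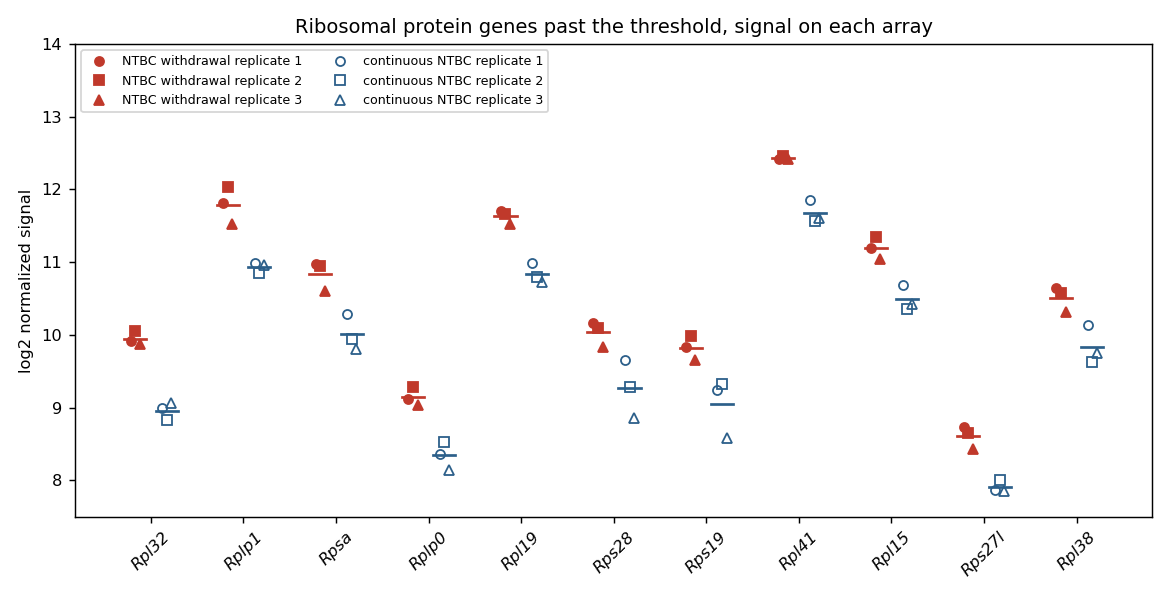
Log2 normalized signal of the 11 ribosomal protein genes past the threshold on each of the 3 withdrawal arrays (filled, left) and 3 continuous NTBC arrays (open, right), with the group mean as a line. In each gene the lowest filled point lies above the highest open point, as in Rpl38 with 10.31 against 10.14.

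Of the members chosen for binding MDM2 or belonging to the p53 response, Rps27l passed the threshold and Rps27 did not, as given above. Rpl5, Rpl11, Rpl26 and Rps7, whose proteins are known to bind MDM2, did not pass it. These 4 genes and Rps27 had mean log2 signals of 5.24 to 7.03, against 8.26 for Rps27l. Of the 29 members with a mean signal below 8, 0 passed, so the signal limits what these genes can show. Rpl5, which binds MDM2 together with Rpl11 and the 5S RNA, had 6.73, 6.45 and 6.46 after withdrawal and 6.68, 6.53 and 6.70 on continuous NTBC, a change of -0.09 with a limma adjusted p of 0.762. Rpl11 had 4.74, 5.63 and 5.03 after withdrawal and 5.33, 5.54 and 5.20 on continuous NTBC, a change of -0.22 with a limma adjusted p of 0.586. The groups overlapped in both. Rpl26, which also promotes translation of p53 mRNA, had 6.98, 6.70 and 7.38 after withdrawal and 7.02, 6.93 and 7.18 on continuous NTBC (change -0.02). Rps7, a small subunit protein that binds MDM2, had 6.90, 6.29 and 6.72 after withdrawal and 6.55, 6.85 and 6.69 on continuous NTBC (change -0.06). Estimates this close to 0 changed sign under some settings, as the closing section lists for Rpl5, Rpl26 and Rps7.

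Rps6, the small subunit protein phosphorylated by the S6 kinases, had 11.86, 11.90 and 11.67 after withdrawal and 11.73, 11.47 and 11.50 on continuous NTBC (change 0.24, limma adjusted p = 0.370). The groups overlapped, with withdrawal replicate 3 below continuous replicate 1. Rps18, often used as a reference gene, had 7.87, 8.2 and 8.00 after withdrawal and 7.85, 8.04 and 7.66 on continuous NTBC, a change of 0.17 (-0.01 after quantile normalization). Rps25, which takes part in initiation on some viral mRNAs, had 8.47, 8.69 and 8.58 after withdrawal and 8.49, 8.42 and 8.2 on continuous NTBC, a change of 0.21. Both overlapped between the groups. Rpl22, whose loss in mice impairs T cell development, had 5.46, 5.44 and 5.69 after withdrawal and 5.47, 5.19 and 5.61 on continuous NTBC, a change of 0.11. The X-linked Rps4x had 10.26, 10.31 and 10.05 after withdrawal and 10.29, 10.17 and 9.83 on continuous NTBC, a change of 0.11. The X-linked Rpl39 had 4.75, 5.03 and 4.72 after withdrawal and 4.83, 4.79 and 4.61 on continuous NTBC, a change of 0.09. None of these 6 passed the threshold, and on centring by genes of like signal Rps4x was at -0.06, Rpl22 at -0.07 and Rpl39 at -0.08.

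The paralogs and copies whose symbols end in l were mostly dim. Rpl10l, a testis-expressed copy of Rpl10, had 3.50, 3.34 and 3.72 after withdrawal and 4.07, 3.50 and 4.19 on continuous NTBC, a change of -0.40. Rpl39l, a testis-expressed copy of Rpl39, had 5.25, 5.12 and 5.46 after withdrawal and 5.52, 5.62 and 5.38 on continuous NTBC, a change of -0.23. Both overlapped between the groups. Rpl3l, the muscle copy of Rpl3, had 5.04, 5.12 and 5.54 after withdrawal and 5.38, 5.72 and 5.49 on continuous NTBC, a change of -0.30. Rpl3 itself, which helps shape the peptidyl transferase centre, had 7.94, 8.05 and 7.96 after withdrawal and 8.27, 7.75 and 8.31 on continuous NTBC, a change of -0.13. In both, the continuous arrays reached higher, with overlap. Rpl32l had 4.52, 4.89 and 4.10 after withdrawal and 3.33, 3.91 and 3.95 on continuous NTBC, without overlap (change 0.77, limma adjusted p = 0.0686). RefSeq lists Rps4l as a transcribed pseudogene, and it had 6.53, 6.66 and 6.67 after withdrawal and 6.33, 6.38 and 6.06 on continuous NTBC, a change of 0.36 without overlap. Rpl6l, listed as a pseudogene, had 9.38, 9.50 and 9.07 after withdrawal and 9.22, 8.75 and 8.62 on continuous NTBC, a change of 0.45 with overlap. None of these genes passed, so that among symbols ending in l only Rps27l did. Ribosomal protein genes have many processed pseudogenes and near-identical copies, so a probe set can read more than its own gene.

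The largest estimate of any member as reported did not pass. Rps13 had 7.85, 7.94 and 7.49 after withdrawal and 7.56, 6.83 and 5.79 on continuous NTBC, a change of 1.03 (SE 0.36, limma adjusted p = 0.109). Its continuous arrays ranged widely and its highest one lay above withdrawal replicate 3. Without continuous replicate 3 its change was 0.56 (limma adjusted p = 0.223), and without continuous replicate 1 it was 1.45 (adjusted p = 0.0124). A further 7 members had adjusted p-values between 0.05 and 0.1, and each of these 7 had an estimate above 0 (Rpl32l, Rps24, Rpl29, Rpl21, Rps29, Rpl35 and Rps12). At the other end, Rps15 had a change of -0.54 (SE 0.37) with strongly overlapping groups. Rps23, the only member wholly below, had 6.14, 5.83 and 6.11 after withdrawal and 6.33, 6.40 and 6.54 on continuous NTBC (change -0.40, limma adjusted p = 0.148).

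The remaining members, none of them past the threshold, are given by their log2 change. In the large subunit the positive estimates were Rpl17 0.81, Rpl9 0.65, Rpl29 0.58, Rpl21 0.54, Rpl8 0.51, Rpl4 0.50, Rpl35 0.48, Rpl13 0.38, Rpl37 0.32, Rpl6 0.30, Rpl27 0.27, Rpl14 0.25, Rpl34 0.25, Rpl23a 0.25, Rpl37a 0.22, Rpl7 0.16 and Rpl28 0.09. Its negative estimates were Rpl7a -0.01, Rpl30 -0.09, Rpl27a -0.21 and Rpl10a -0.23. In the small subunit the positive estimates were Rps24 0.59, Rps26 0.57, Rps29 0.50, Rps12 0.44, Rps3 0.22, Rps14 0.17 and Rps10 0.08, and the negative ones were Rps16 -0.17, Rps20 -0.18 and Rps9 -0.25. Rpl17, the largest of these, had overlapping groups and a standard error of 0.34. Its change was 0.45 without continuous replicate 2 and 1.23 without continuous replicate 1 (limma adjusted p = 0.478 and 0.0118).

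The change read by a member's probe set varied with its signal. The 35 members with a mean log2 signal of 8 or more held all 11 calls, a bound set after it was seen that none below it passed, and their median change was 0.50. Of 2970 other genes at that signal, 21.6% were higher, 11.7% were lower and the median change was 0.20. In narrower bands, members called were 0 of 17 below a signal of 6, 0 of 12 from 6 to 8, 5 of 18 from 8 to 10 and 6 of 17 from 10 up. These are 0%, 0%, 27.78% and 35.29% of the members, against 1.46%, 12.85%, 21.3% and 23.18% of the other genes called higher in the same bands. The members' median changes in that order were 0.09, 0.12, 0.36 and 0.54, and those of the other genes were -0.13, 0.10, 0.22 and 0.09. Bright genes as a whole moved with the members on single arrays. The median signal of the bright members was 10.21, 10.22 and 9.87 after withdrawal and 10.14, 9.71 and 9.69 on continuous NTBC, and that of the other bright genes was 9.02, 9.06 and 8.87 after withdrawal and 8.93, 8.69 and 8.77 on continuous NTBC. The gap between these medians was 1.19, 1.16 and 1.0 after withdrawal and 1.21, 1.02 and 0.92 on continuous NTBC, so the groups overlapped in it. The median of all probe sets was 5.26, 5.21 and 5.39 after withdrawal and 5.29, 5.44 and 5.43 on continuous NTBC. The part of these array-wide shifts in the members' changes was not tested.

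**Figure D3:**
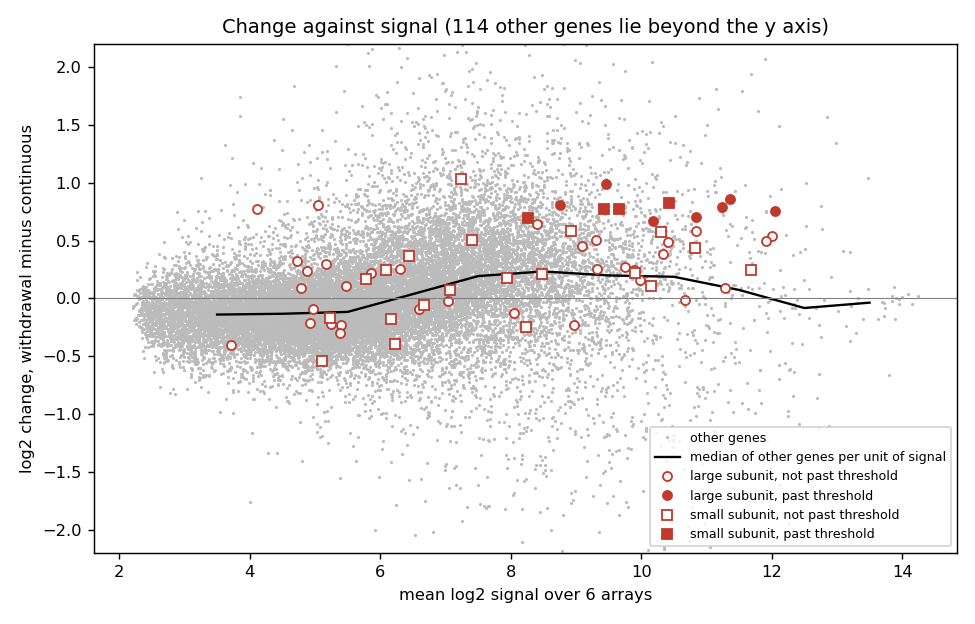
Log2 change (withdrawal minus continuous NTBC) against mean log2 signal over the 6 arrays, for the ribosomal protein genes and all other genes, with 114 other genes beyond the y axis. The members past the threshold all lie at a mean signal above 8, where the other genes also have a median change above 0.

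Other probe sets of the same genes gave a partial check, since the rule took 1 probe set per gene. Member symbols had 104 probe sets with 97 distinct profiles. Of the 33 distinct probe sets that were not chosen, 6 were higher, 0 were lower and 23 had the sign of the chosen one. Of all probe sets 6.21% were higher and 3.2% lower. At a mean signal of 8 or more, 4 of the 11 not chosen were higher (median change 0.50), where 21.6% of other genes were. Of the 22 dimmer ones 2 were higher and 12 had an estimate above 0, with a median change of 0.04. Rpl41 had 4 probe sets past the threshold, with changes of 0.76, 0.70, 0.88 and 0.91, and another, dim one at -0.43 that did not pass. The other probe sets of Rpl19 and Rpsa passed as well, with changes of 0.58 and 0.59 (limma adjusted p = 0.0370 and 0.0464). So did the other probe set of Rpl29, whose chosen one did not pass, with 0.60 (limma adjusted p = 0.0375). The other probe sets of Rplp0 and Rps19 were near 0, at -0.05 and 0.05, and both were dim. The other probe set of Rplp1 had 0.55 (adjusted p = 0.0660).

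Genes that act with the ribosomal proteins were read from lists, each given by its count of measured members. Over all probe sets 6.21% were higher and 3.2% lower. Of other genes, 12.85% were higher at a signal of 6 to 8 and 21.3% at 8 to 10. Of 25 translation factors and other TOP mRNAs (median signal 8.86), 2 (8%) were higher and 0 were lower, with a median change of 0.12. The 2 were the import receptor Ipo7 (0.61) and the initiation factor subunit Eif3h (0.55). Neither passed once continuous replicate 2 or 3, or any withdrawal array, was left out. In this list 6 genes lay wholly above and 4 wholly below, where 13.9% and 13.7% of all probe sets did. The 4 were Eif4b (-0.48), Tpt1 (-0.44), Naca (-0.35) and Eef2 (-0.17), none of them past the threshold. Of 25 regulators of mTORC1 and TOP mRNAs (median signal 7.67), 5 (20%) were higher and 1 (4%) was lower. The inhibitors Sesn2 and Ddit4 had changes of 1.80 and 1.31 and passed whichever array was left out. Eif4ebp1 and Eif4ebp2, which both block the cap-binding factor, moved in opposite directions at 0.82 and -0.57, and the mTORC1 activator Rheb was higher by 0.83 and the kinase gene Rps6ka3 by 0.54. Mtor itself, at 0.18, and Larp1, which binds TOP mRNAs, at -0.17, did not pass. Eif4ebp2 passed only without continuous replicate 1 and Rps6ka3 in none of the fits that leave out 1 array, with highest adjusted p-values of 0.144 and 0.152, and Eif4ebp1 and Rheb missed the threshold without withdrawal replicate 1. This count was 8 without continuous replicate 1 and 2 without withdrawal replicate 1.

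Of 9 genes of the checkpoint through MDM2 and p53 (median signal 7.83), 6 (66.67%) were higher. Beside this stand 6.21% of all probe sets and 12.85% of other genes with a signal of 6 to 8. The list was chosen with earlier results of these data known, so its share is a description and not a test. The cell cycle inhibitor Cdkn1a had 10.57, 10.37 and 10.29 after withdrawal and 6.32, 6.07 and 6.99 on continuous NTBC, a change of 3.95 (SD 0.14 and 0.48, n = 3 each, limma adjusted p = 8.27e-06). Mdm2 itself had 9.10, 8.97 and 8.70 after withdrawal and 7.54, 7.09 and 7.34 on continuous NTBC, a change of 1.60. Ccng1, Zmat3 and Phlda3, further p53 targets, had changes of 2.42, 1.98 and 1.23. Myc, which drives ribosome production, had 8.76, 8.63 and 8.85 after withdrawal and 8.06, 6.38 and 6.32 on continuous NTBC, where replicate 1 stood apart. Nop53 (-0.51, wholly below), Mdm4 (0.37) and Cdkn2a (-0.05) did not pass.

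Of 26 genes that transcribe ribosomal protein genes and rRNA, 5 (19.23%) were higher. Beside this stand 6.21% of all probe sets and 12.85% of other genes with a signal of 6 to 8. The 5 were Myc, the largest subunit of RNA polymerase I Polr1a (0.96), its initiation factor Rrn3 (1.16), Taf1a (0.83) and Tbpl1 (0.58). This count was 2 without continuous replicate 2 or withdrawal replicate 1, and 3 without withdrawal replicate 2. Of 17 chaperones and importers of ribosomal proteins, 2 (11.76%) were higher, Ltv1 (0.79) and Ipo7. This count was 3 without continuous replicate 1, 1 without withdrawal replicate 3 and 0 without any other array. Of 19 genes of ribosome surveillance and turnover, 6 (31.58%) were higher. They were led by Ube2o, a ligase for unassembled ribosomal proteins (1.10), and Abce1, which splits ribosomes for recycling (1.03). The others were Map3k20 (0.83), Rnf10 (0.78), Pelo (0.69) and Nufip1 (0.65), and the count was 2 without withdrawal replicate 1 and 3 without withdrawal replicate 2.

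The 71 mitochondrial ribosomal protein genes, which build the separate ribosome of the mitochondrion, gave values near those of the cytosolic set, and the difference was not tested. Of them 10 (14.08%) were higher and 0 lower, with a median of 0.23. Their median signal was 7.66, and of other genes with a signal of 6 to 8, 12.85% were higher. Those with the smallest p among the 71 were Mrps22 (0.95), Mrpl50 (0.80), Mrpl35 (0.67), Mrpl16 (0.78), Mrpl38 (0.71) and Mrps33 (0.65). With continuous replicate 2 or 3 left out this count was 4 or 3, and with withdrawal replicate 1 or 2 left out it was 1 or 2. Of 4 measured ribosomal proteins whose symbols fall outside the pattern, 0 passed the limma threshold.

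**Figure D4:**
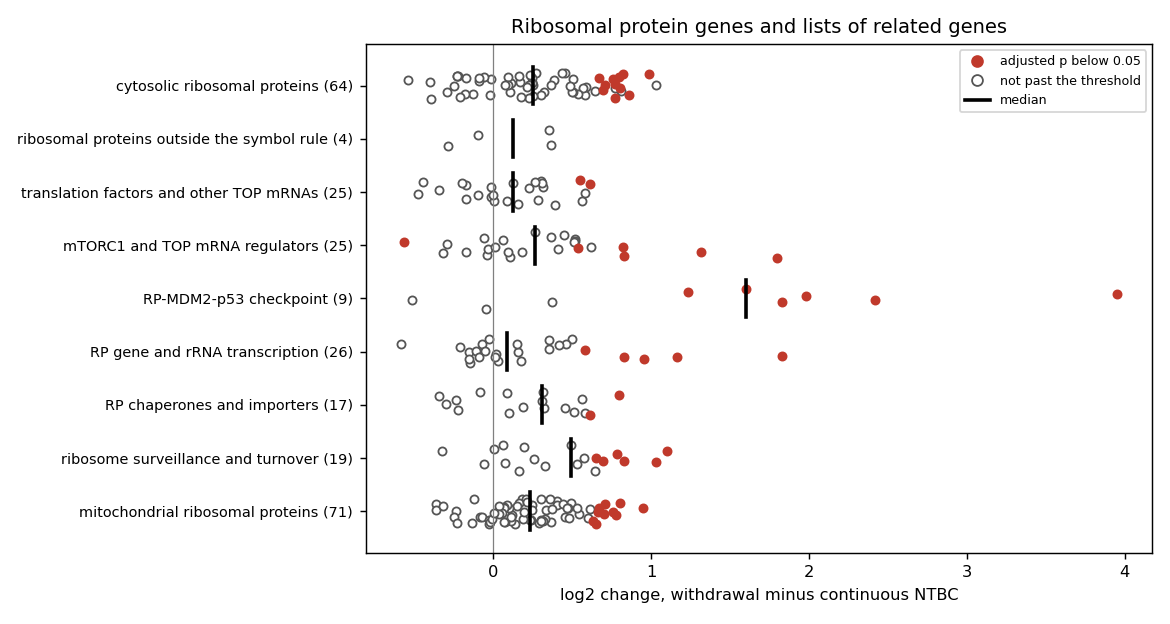
Log2 change (withdrawal minus continuous NTBC) of the genes of each list, with the ribosomal protein genes at the top, filled where the adjusted p was below 0.05 and with the median as a line. The list medians run from 0.09 for the transcription list to 1.60 for the MDM2 and p53 list.

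Markers of liver cell types were set beside these values, since in tissue RNA fewer cells of a type and less RNA per cell cannot be told apart. Of 7 hepatocyte markers, 2 were lower, Cps1 (-1.08) and Tat (-1.23), and the others did not pass, with Serpina1a at -0.77, Apoa1 at -0.23, Alb at -0.05, Ttr at 0.10 and Hnf4a at 0.13. The log2 of the summed signal was 15.46 to 15.60 after withdrawal and 15.69 to 15.85 on continuous NTBC. Of 5 markers of sinusoidal endothelium, 2 were higher, Lyve1 (1.07) and Clec4g (0.81), while Stab2 (0.36), Kdr (0.32) and Pecam1 (0.02) did not pass, with sums of 10.64 to 10.71 after withdrawal and 9.89 to 10.24 on continuous NTBC. None of 7 Kupffer cell, 5 stellate cell, 4 cholangiocyte, 3 B lymphocyte, 4 T or NK lymphocyte, 4 neutrophil or 3 dividing cell markers passed. Their part in the members' changes was not tested.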

How the data were processed

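The deposited table gave each probe set a linear, normalized intensity for every array (3.58 to 22226.61). Per the submitters' processing notes the Transcriptome Analysis Console was used; the normalization method, its version and the genome build are not given in the sources used here. Every deposited intensity lay within 0.006 of a power of 2 whose exponent has 2 decimals, so log2 was taken. Symbols came from the platform annotation: of 34472 probe sets, 23521 had 1 symbol, 1814 several and 9137 none, and all 64 members matched RefSeq by ID.

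A model of group was fitted to all probe sets with limma 3.58.1 in R 4.3.3 (lmFit and eBayes, 4 residual and 10.2 total degrees of freedom), with Benjamini-Hochberg adjustment and a threshold of 0.05. The number of arrays, 3 a group, limits the precision. The fit was tested on simulated data in which 100 probe sets changed at each size. At log2 changes of 0.5 and 1 it recovered 0 of 100 each. The sizes were then raised, and it recovered 37 of 100 at 1 and 95 of 100 at 2. Far fewer probe sets changed there than the 3241 called in the data, which makes the adjustment stricter. The recovered shares therefore do not carry over to the data, and a member short of the threshold may still differ.

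The members and lists were chosen with earlier results of these data known. The text gives per-array values for members past the threshold and for members chosen by role. Alternatives were other normalizations, filters, fits and probe set choices and leaving out each array; those applied to the lists, the centring on genes of like signal for counts, the signal bound of 8 and the longer C and T run were added after the data were seen. No protein sequences are shown.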

Additional observations from a re-analysis of the deposited data

How the results depend on the processing

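No member was called lower under any setting run, and none of the 11 genes past the threshold changed sign. The 11 all passed under median centring (13 called), without the dimmest probe sets (13), with the replicate block (12, with Rps13 added), with array weights (25), with a trended robust prior (17) and among single-symbol probe sets only (15). After quantile normalization 9 of the 11 were among 12 called, averaging a gene's probe sets kept 8 among 9, and centred on genes of like signal 5 remained and the median was 0.075. A bound of 1.5-fold left 11. Same-numbered samples had correlations of deviations of 0.16, -0.125 and 0.217, so the numbers were not taken as pairs, and samples did not all correlate best with their own number. Leaving out 1 array gave 1 to 20 members higher, 0 lower, medians of 0.22 to 0.32, and 1454 to 4210 of all probe sets called, against 5588 with array weights. Calls over all probe sets were higher in 66.0% as reported, 58.3% after quantile normalization, 77.2% after median centring and 43.4% centred on genes of like signal.

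For the lists, leaving out 1 array gave 0 to 2 of the TOP mRNAs higher, 2 to 8 of the mTORC1 regulators higher and 0 to 1 lower, 5 to 6 of the p53 list, 2 to 5 of the transcription list, 0 to 3 of the chaperones, 2 to 8 of the surveillance list and 1 to 15 of the mitochondrial proteins higher. With array weights the counts higher were 4, 9, 6, 7, 6, 9 and 19 in that order, and centred on genes of like signal 0, 3, 6, 4, 0, 4 and 3. The replicate block left 0 TOP mRNAs and 1 chaperone, and quantile normalization 1 TOP mRNA. A single gene was lower in the TOP list (quantile normalization, array weights, like signal), the p53 list (quantile normalization, trended prior, like signal), the mitochondrial list (quantile normalization) and the transcription list (1 under quantile normalization, without dim probe sets, array weights, trended prior, single-symbol probe sets and like signal), and 0 of the mTORC1 list after median centring.

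Members near 0, none past the threshold, changed sign. After quantile normalization Rps18 was at -0.0108, Rps10 at -0.0578 and Rpl30 at 0.0239, and Rpl7 was at -0.0101 with the mean of probe sets. Centred on genes of like signal, Rps14 was at -0.0066, Rpl7 at -0.0133, Rps4x at -0.0633, Rpl22 at -0.0665, Rpl28 at -0.0833, Rpl39 at -0.0834 and Rps10 at -0.0967. After median centring Rpl7a was at 0.0867, Rpl26 at 0.0766, Rps7 at 0.04, Rpl5 at 0.01 and Rpl30 at 0.0099. With array weights Rps20 was at 0.0757, Rps7 at 0.038, Rpl30 at 0.0232 and Rpl7a at 0.0228. With 1 array left out the ranges were -0.0233 to 0.2067 for Rps4x, -0.0099 to 0.2002 for Rpl22, -0.0085 to 0.1466 for Rpl39, -0.2033 to 0.1366 for Rpl26, -0.1916 to 0.1134 for Rps7, -0.0383 to 0.4017 for Rpl7, -0.0033 to 0.1667 for Rpl28, -0.0967 to 0.0683 for Rpl7a, -0.2802 to 0.035 for Rpl30, -0.3583 to 0.0 for Rps16 and -0.7299 to 0.255 for Rps20. The causes were not tested, and the number of arrays limits all of these values.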
